A study of Mus musculus with 36 samples.

Results

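The 40 genes described here encode the replication fork and chromatin assembly machinery, the proteins that copy DNA and wrap the copies into nucleosomes. They were chosen by name and role, with earlier results of these data known, and all 40 were found among the 12762 genes of the expression table. They were grouped by role into primase and DNA polymerase alpha (4 genes), DNA polymerases delta and epsilon (5), the sliding clamp and its loaders (7), the single-strand binding protein RPA (3), GINS and Cdc45 (5), Okazaki fragment maturation (4), fork protection and checkpoint (4), origin recognition and the firing kinase (4), and chromatin assembly (4).

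Expression was measured by mRNA-seq in B3, a mouse cell line that models a dividing pre-B cell. The Ikaros line carried an MSCV retroviral vector encoding HA-tagged wild-type Ikaros joined to the ERt2 hormone-binding domain, followed by IRES-GFP, and the control line carried the same vector with ERt2 but without Ikaros. Both lines received 4-hydroxy-tamoxifen (4-OHT) at 0.5 uM, which moves the fusion protein into the nucleus, and were collected at 0, 2, 6, 12, 18 and 24 h with n = 3 per group and 36 libraries in all. The replicates were culture batches of one transduced line each, numbered 1, 2 and 4 for the 0 h groups and 1, 3 and 4 afterwards, so p-values measure the spread between cultures of these 2 lines. The labels list the drug for the 0 h libraries too, but the study's methods give these cells as undrugged and harvested apart from the others, so every comparison with 0 h also compares harvests.

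Values are log2 expression levels after normalization by the authors, and a level expressed as a percentage of another rests on base 2. Ikzf1, the gene for Ikaros, lay between 13.95 and 14.85 in the control libraries and between 19.63 and 20.93 in the Ikaros libraries, so every library went with its line label. All 10 pre-B markers reported here, Cd79a and Pax5 among them, were in the table, between the 33.9 and 99.5 percentiles of mean level. Of 6 T cell markers only Lck was in the table, at the 39.5 percentile and so within the range of the pre-B markers. Of 6 myeloid markers Itgam and Lyz2 were in it (5.80 and 7.59 percentiles), and of 5 erythroid markers Epor, Hbb-b1 and Klf1 (2.99 to 14.6). Library medians ran from 11.70 to 11.73, libraries of a group correlated across genes with r between 0.962 and 0.992, and the read depth reached is not known from these values, as the study's methods give only a target. The libraries were strand-specific, but whether strand was used in counting is not given in the sources used here. Overlap with other annotated genes affected many of the 40 genes, 12 on the same strand and 20 on the opposite one, and Pcna, Rfc5 and Wdhd1 have near-identical copies (Pcna-ps2, Gm12870 and Gm17052), so reads of these genes may be shared.

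At a replication fork, the helicase formed by MCM, GINS and Cdc45 opens the DNA duplex, RPA coats the exposed single strands, and polymerase alpha with primase begins each new strand. Polymerase epsilon extends the leading strand and polymerase delta the lagging strand, both held by the PCNA clamp that the RFC complex loads, and the Okazaki fragments are trimmed by FEN1 and DNA2 and joined by ligase. Histone chaperones then place nucleosomes behind the fork. Many of these genes are transcribed most strongly as dividing cells enter S phase. In a culture of mixed cell cycle stages, fewer cells in S phase and less RNA per cell cannot be told apart.

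The first question was how the level of each gene differed between Ikaros and control cells along the course. A gene was called when its limma p-value, adjusted over all 12762 genes, was under 0.05. At 24 h, 36 of the 40 genes were called lower in Ikaros cells and 0 higher, whereas 31.9% of all genes were called lower and 31.0% higher. The median difference of the 40 genes was -0.85 on the log2 scale, an Ikaros level of 55.4% of control, against -0.01 for all genes. The called differences ran from -0.18 for Rfc2 to -2.92 for Dna2, and 13 genes were lower by at least 1 log2 unit. The smallest of these 13 differences was that of Cdc45 (-1.01), and 17.3% of all genes, called or not, had a difference as low. In 37 of the 40 genes all 3 Ikaros libraries lay below all 3 control libraries, an arrangement found in 36.1% of all genes. By that arrangement these 37 genes were necessarily lower within each of the 3 culture batches. The exceptions were Rfc1, Rpa3 and Asf1b, and the remaining gene that was not called was Prim2.

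**Figure D1:**
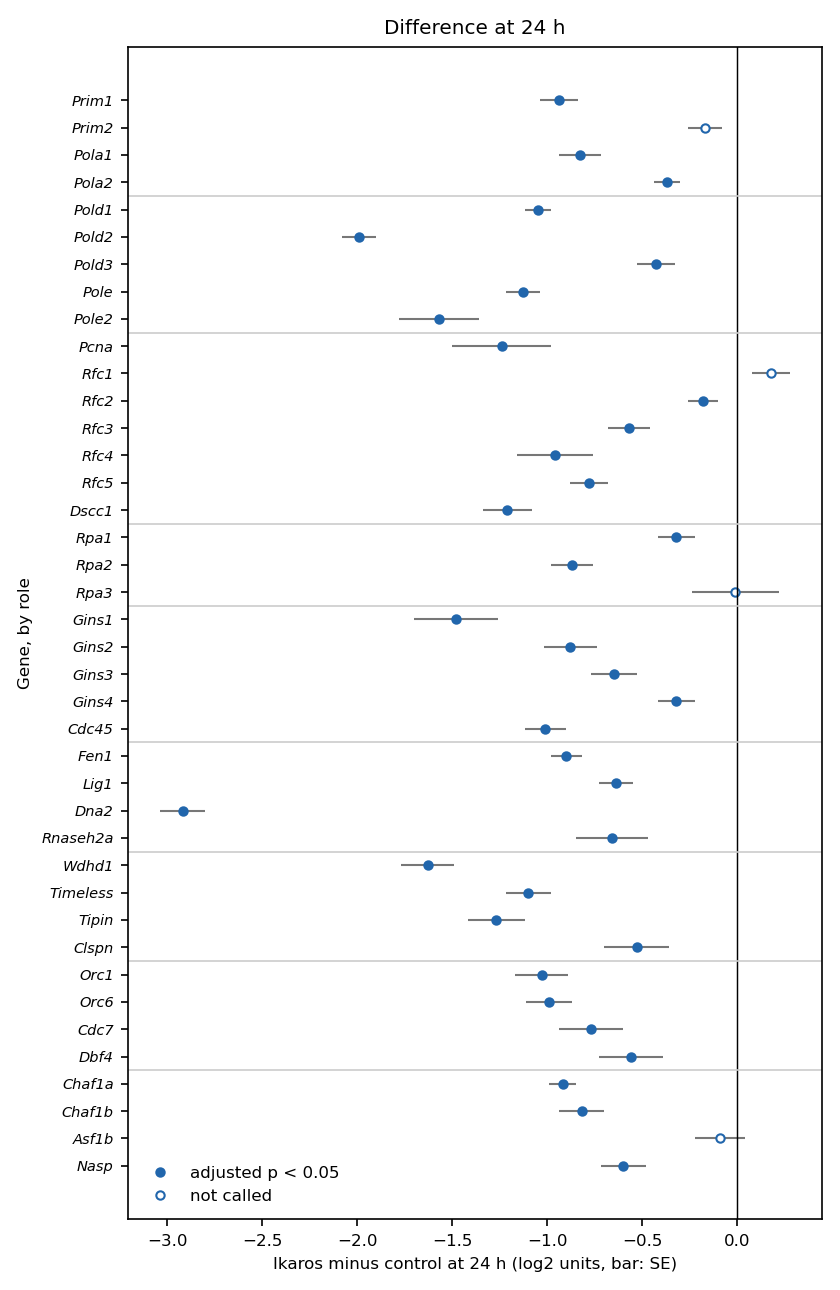
Ikaros minus control at 24 h for each of the 40 genes, in log2 units on the horizontal axis, with genes on the vertical axis in order of role and grey lines between roles. Points are limma estimates from n = 3 libraries per group, bars are 1 SE, filled points passed an adjusted p of 0.05, and 36 filled points lie to the left of 0, from -0.18 (Rfc2) to -2.92 (Dna2).

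Earlier in the course the genes did not move as a block. At 0 h, before induction, 2 of the 40 genes were higher and 4 were lower in Ikaros cells, where the shares over all genes were 4.61% and 3.72%. At 2 h, 4 genes were lower and 0 higher (9.88% and 9.18% of all genes). At 6 h, 6 genes were higher and 10 lower (18.1% and 19.2% of all genes), and at 12 h 2 were higher and 11 lower (23.0% and 22.8%). At 18 h, 1 gene was higher and 23 were lower, against 29.0% and 29.2% of all genes. The median differences of the 40 genes in time order were -0.10, 0.01, 0.04, -0.12, -0.36 and -0.85, whereas those of all genes stayed between -0.03 and 0.00. The counts up to 12 h were not stable when 1 culture of every group was left out. In time order, 1, 1, 6 and 10 genes were called without the first culture of every group (batch 1). The counts were 0, 1, 9 and 6 without the second (batch 2 at 0 h and batch 3 later). Without the third (batch 4) they were 5, 6, 16 and 10. Each such fit had 2 libraries per group. The counts at 18 and 24 h were 18 or more and 31 or more without any single culture.

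**Figure D2:**
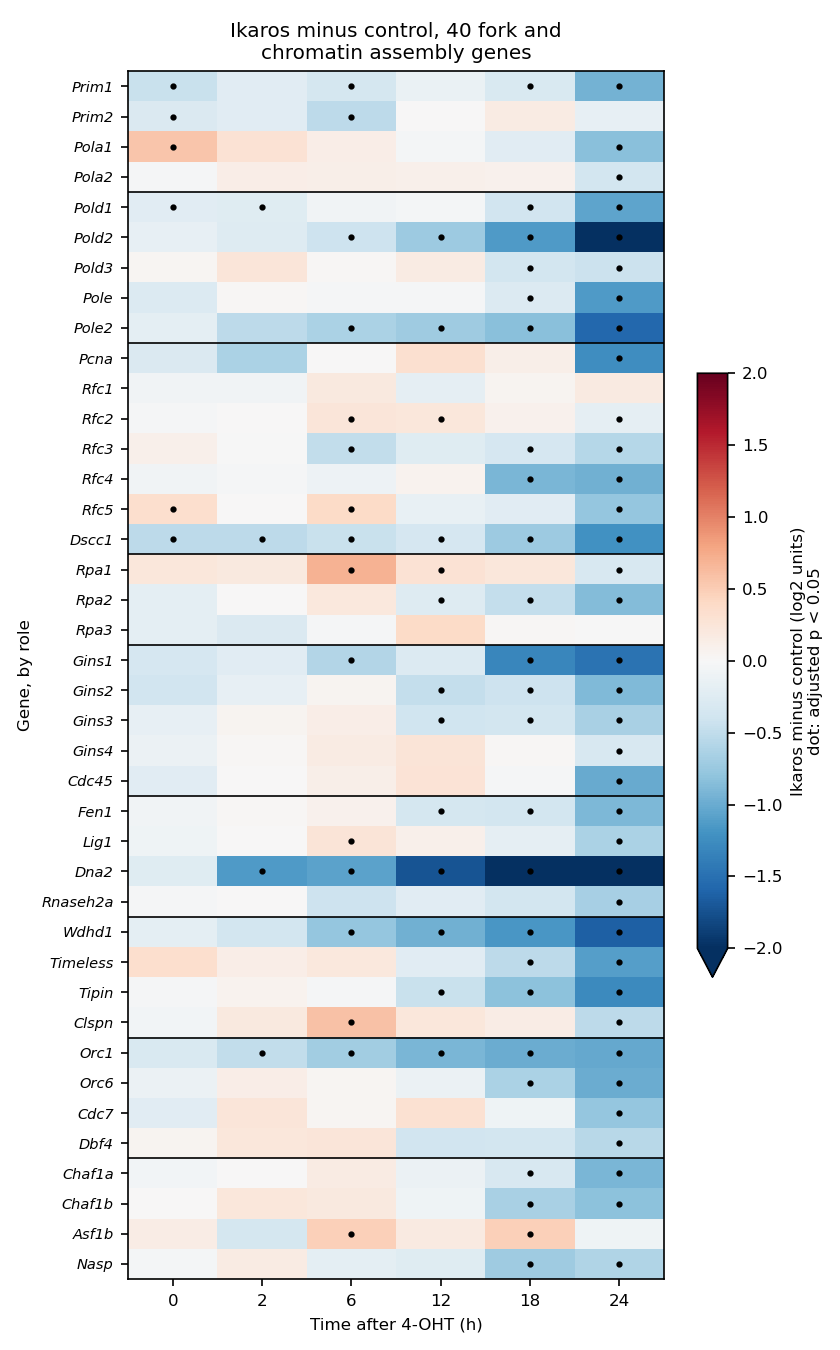
Ikaros minus control for the 40 genes (rows, by role, black lines between roles) at 6 times after 4-OHT (columns, h), coloured on a log2 scale that saturates at -2 and 2, with a dot where the adjusted p was under 0.05. Blue (lower in Ikaros cells) is scattered to 12 h and fills 36 dotted cells of the 24 h column, and red dotted cells occur in 6 genes at 6 h.

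Primase and DNA polymerase alpha lay the short primers with which each new strand begins. At 24 h 3 of their 4 genes were lower, with a median difference of -0.60 over the 4. Prim1 (chromosome 10, 128015168 to 128030037, forward strand of GRCm38), the catalytic primase subunit, stood at 13.42, 13.51 and 13.42 in the control libraries of batches 1, 3 and 4 and at 12.44, 12.64 and 12.47 in the Ikaros libraries. All Ikaros libraries were below all control libraries, and the difference was -0.94 (limma, SE 0.10, adjusted p 7.9e-09), leaving 52.3% of the control level. Prim1 was already lower at 0 h, by -0.44 (adjusted p 0.00447), and this difference widened by -0.49 from 0 to 24 h, a change that was itself called. Without batch 1 neither the 0 h difference nor this change was called, and each was also lost without 1 further culture.

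Prim2, the large primase subunit, behaved unlike Prim1 at 24 h. Its control libraries read 15.05, 15.00 and 15.01 and its Ikaros libraries 14.88, 14.87 and 14.79. The groups did not overlap, but the difference of -0.17 did not pass the test (limma, SE 0.09, adjusted p 0.083). Prim2 was lower in Ikaros cells at 0 h (-0.29, adjusted p 0.0297) and at 6 h (-0.52, adjusted p 3e-05), and of the 40 genes it was the single one called higher at 24 h than at 0 h within the Ikaros line (0.21, adjusted p 0.036). That call was lost without the first or the second culture of every group, and when only the compared groups were fitted.

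Pola1 (chromosome X, 93304767 to 93632155, reverse strand), the catalytic subunit of polymerase alpha, changed sides during the course. At 0 h its control libraries stood at 13.06, 13.04 and 13.19 and its Ikaros libraries at 13.67, 13.60 and 13.72, all above control (difference 0.56, limma, SE 0.11, adjusted p 0.00123, not called without batch 2). By 24 h the control libraries read 13.26, 13.25 and 13.17 and the Ikaros libraries 12.48, 12.49 and 12.21, all below control (difference -0.83, adjusted p 4.2e-07). The change of the difference from 0 to 24 h was -1.39 (limma, SE 0.16, adjusted p 5.65e-08). The accessory subunit Pola2 was called at 24 h alone, with a difference of -0.37.

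The polymerases that extend the strands, delta and epsilon, were lower at 24 h in all 5 genes examined, with a median of -1.13. Pold2 (chromosome 11, 5872180 to 5878292, reverse strand), the accessory subunit of polymerase delta, read 14.96, 14.92 and 15.05 in control and 12.96, 13.13 and 12.88 in Ikaros libraries. The difference of -1.99 (limma, SE 0.09, adjusted p 9.01e-16) left 25.2% of the control level. It grew from -0.41 at 6 h to -0.72 at 12 h and -1.14 at 18 h, each called, while the control libraries of all times stayed between 14.71 and 15.05. Pole2, the accessory subunit of polymerase epsilon, was also called lower at each time from 6 to 24 h, by -0.63, -0.71, -0.83 and -1.57. Its Ikaros libraries at 12 h read 12.80, 12.95 and 11.84. The 12 h call was lost without batch 4 and in the fit of only the compared groups. Within the Ikaros line none of its successive steps from 2 to 24 h was called, whereas Pold2 fell from 12 to 18 h and from 18 to 24 h. The catalytic subunits Pold1 and Pole were lower by -0.39 and -0.28 at 18 h and by -1.05 and -1.13 at 24 h, and the delta subunit Pold3 by -0.36 and -0.43. Pold1 was also called lower at 0 and 2 h (-0.22 and -0.24), the first call being lost without any single culture of each group and the second without batch 1 or batch 3, whereas at 6 and 12 h (-0.07 and -0.04) it was not called. Pole was not called before 18 h (-0.03 at 12 h). Its 18 h call was lost without batch 1 or batch 3 and in the fit of only the compared groups. That of Pold3 at 18 h was lost without batch 3.

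The sliding clamp PCNA and its loaders tether the polymerases, and 6 of their 7 genes were lower at 24 h (median -0.78). Pcna (chromosome 2, 132249162 to 132253314, reverse strand) read 17.98, 17.88 and 18.25 in control and 16.74, 17.12 and 16.55 in Ikaros libraries at 24 h, a difference of -1.24 (limma, SE 0.26, adjusted p 0.000165). Its libraries spread more widely than those of most of the other genes, and at 0 h they ran from 17.37 to 17.83 in control and from 16.84 to 17.63 in Ikaros cells, which overlap. Within the Ikaros line Pcna went from 16.65, 16.91 and 16.48 at 2 h to 17.91, 17.30 and 17.29 at 6 h, a rise of 0.82 (limma, SE 0.26, adjusted p 0.0397). That rise passed in the fit of all 36 libraries but not without any single culture of each group, nor when only the compared groups were fitted.

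Rfc1, the large subunit of the main clamp loader, was the 1 gene of the 40 whose Ikaros libraries all lay above control at 24 h, at 14.22, 14.11 and 14.14 against 14.02, 14.08 and 13.84. The difference of 0.18 did not pass the test (limma, SE 0.10, adjusted p 0.116), nor did that of any other time. The small subunits went lower by -0.18 (Rfc2), -0.57 (Rfc3), -0.96 (Rfc4) and -0.78 (Rfc5) at 24 h. The call of Rfc2 was lost in the fit of only the compared groups (adjusted p 0.0898) and without any 1 culture of each group. Dscc1, which belongs to the alternative loader used in cohesion, was lower at every time, by -0.52 at 0 h and -1.21 at 24 h, so a difference was present before induction. Each of its calls before 18 h was lost without at least 1 culture of every group.

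Rfc5 was higher in Ikaros cells at 0 h, where the libraries read 13.84, 13.72 and 13.80 against 13.50, 13.47 and 13.42 in control (difference 0.33, limma, SE 0.10, adjusted p 0.0497). At 24 h they read 12.77, 12.64 and 12.65 against 13.50, 13.51 and 13.39 (difference -0.78, adjusted p 2.77e-07). Neither pair of groups overlapped, and the change of the difference was -1.10 (limma, SE 0.15, adjusted p 5.62e-07). The 0 h call was lost without any single culture of each group.

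RPA protects single-stranded DNA as a trimer of 3 subunits, and these moved differently. Rpa2 (chromosome 4, 132768332 to 132778752, forward strand), the middle subunit, read 13.99, 13.90 and 13.60 in control and 13.00, 12.85 and 13.01 in Ikaros libraries at 24 h. The groups were apart, with a difference of -0.87 (limma, SE 0.11, adjusted p 5.95e-08). Rpa1, the large subunit, exceeded control by 0.70 at 6 h, with 15.25, 15.17 and 15.25 against 14.49, 14.60 and 14.47. By 24 h it was lower by -0.32 (adjusted p 0.00829), a call lost in the fit of only the compared groups (adjusted p 0.0621) and without batch 1 or batch 3 (adjusted p 0.0538 and 0.304). Rpa3, the small subunit, read 14.37, 14.26 and 14.52 in control and 14.23, 14.69 and 14.20 in Ikaros libraries at 24 h. These overlap, and the difference of -0.01 (limma, SE 0.23, adjusted p 0.977) turned to 0.05 without batch 1 and to 0.15 without batch 4.

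GINS and Cdc45 complete the replicative helicase, and all 5 genes were lower at 24 h (median -0.88). Gins1 (chromosome 2, 150905400 to 150931280, forward strand) stood at 12.75, 12.66 and 12.76 in control and at 11.15, 11.47 and 11.10 in Ikaros libraries. The groups were far apart, with a difference of -1.48 (limma, SE 0.22, adjusted p 1.1e-06) that left 35.8% of the control level. Before then Gins1 was called lower at 6 h (-0.58, a call lost without any single culture of each group) and at 18 h (-1.30), but not at 12 h (-0.27). The GINS subunits Gins2 and Gins3 were lower from 12 h on (-0.47 and -0.40 at 12 h, -0.88 and -0.65 at 24 h), whereas Gins4 was called at 24 h alone (-0.32), a call lost without batch 1 or batch 3 (adjusted p 0.0772 and 0.122). Cdc45 rose within the Ikaros line to 12 h (0.61 above its own 0 h level) and then fell, to a difference from control of -1.01 at 24 h.

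Okazaki fragment maturation removes primers and joins the pieces of the lagging strand, and all 4 of its genes were lower at 24 h. Dna2 (chromosome 10, 62947026 to 62974185, forward strand), a nuclease and helicase that trims long flaps, showed the largest difference of the 40 genes and the earliest change. At 0 h its libraries stood at 12.83, 12.90 and 13.09 in control and at 12.59, 12.62 and 12.86 in Ikaros cells, a difference of -0.25 that was not called (adjusted p 0.257). At 2 h the control libraries read 13.04, 12.83 and 12.84 and the Ikaros libraries 11.75, 11.78 and 11.75. The groups were apart by -1.14 (limma, SE 0.12, adjusted p 7.64e-08), and Dna2 alone among the 40 genes showed a called change of the difference between 0 and 2 h (-0.89, adjusted p 0.00204), where 3.10% of all genes did. That change was not called without batch 1 or without the second culture of every group, whereas the 2 h difference itself was called under every alternative.

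At 6, 12 and 18 h the differences of Dna2 were -1.07, -1.72 and -2.12, and its level fell within the Ikaros line in each of the 3 steps from 6 to 24 h. At 24 h the control libraries read 12.88, 12.97 and 12.73 and the Ikaros libraries 9.96, 9.90 and 9.97. The difference of -2.92 (limma, SE 0.12, adjusted p 6.65e-17) left 13.2% of the control level, and 1.57% of all genes had a difference as low. Fen1, the main flap endonuclease, was lower from 12 h (-0.35) to 24 h (-0.90). The ligase gene Lig1 (-0.64) and the ribonuclease H2 subunit Rnaseh2a (-0.66) were lower at 24 h alone.

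**Figure D3:**
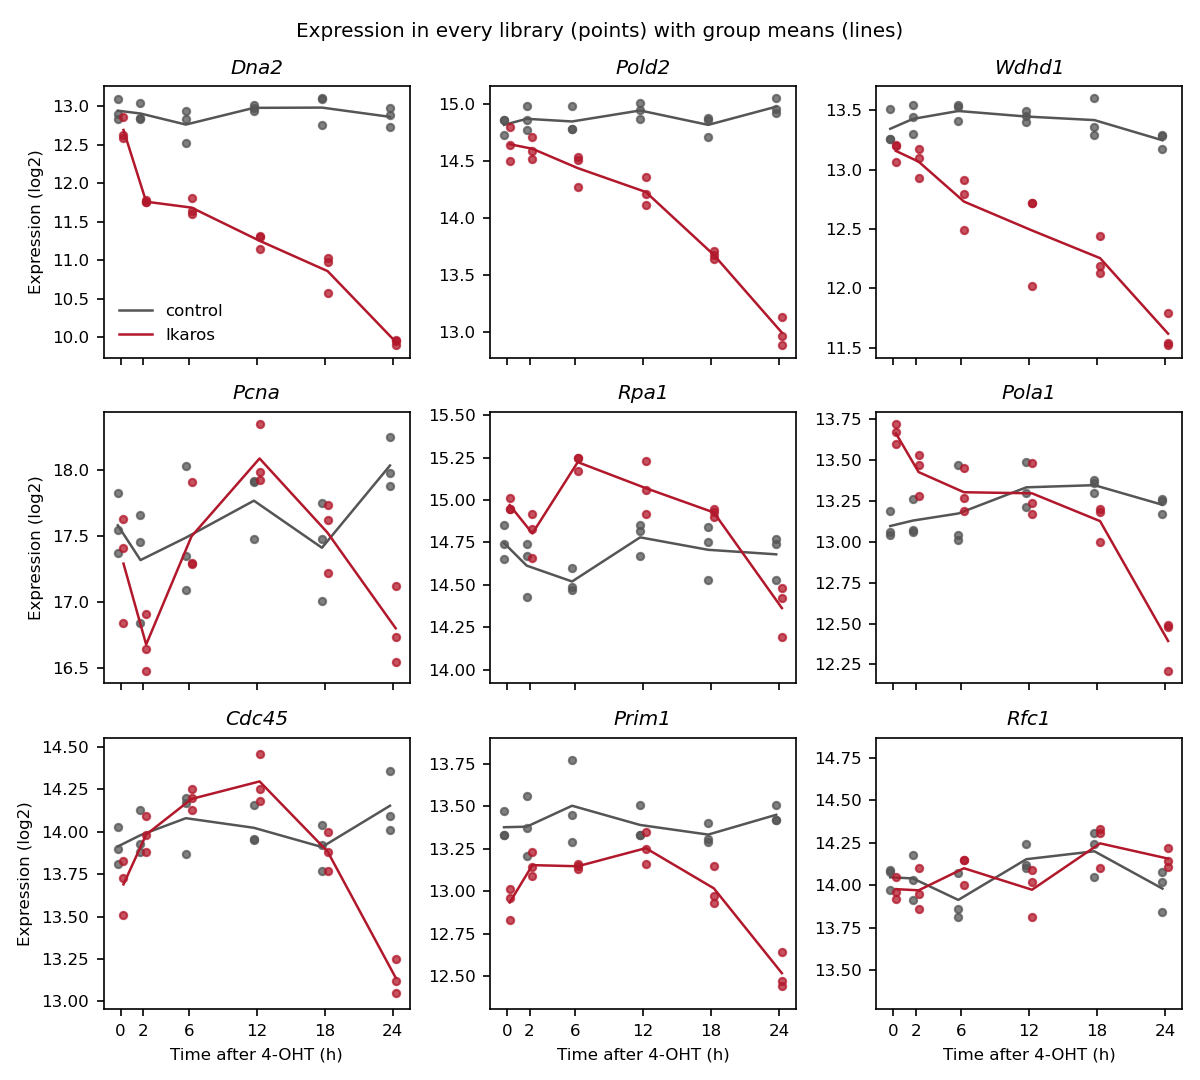
Log2 expression (vertical axes, each with its own range) against time after 4-OHT in h for 9 of the genes, with a point for each library (n = 3 per group) and lines through the group means, grey for control and red for Ikaros cells. Dna2 separates at 2 h and reaches 9.90 to 9.97 at 24 h, Pold2 and Wdhd1 separate step by step, Pcna, Cdc45 and Rpa1 lie at or above control at 12 h and below it at 24 h, Pola1 and Prim1 fall at 24 h, and Rfc1 stays between 13.81 and 14.33.

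The fork protection and checkpoint genes couple the helicase to the polymerases and signal stalled forks, and all 4 were lower at 24 h (median -1.19). Wdhd1 (chromosome 14, 47240944 to 47276857, reverse strand), the adaptor that ties polymerase alpha to the helicase, read 13.29, 13.17 and 13.28 in control and 11.52, 11.79 and 11.54 in Ikaros libraries. The groups did not overlap at any time, and the difference went from -0.77 at 6 h to -0.96, -1.16 and -1.63 at 24 h (limma, SE 0.14, adjusted p 1.41e-10). Timeless and Tipin, which form a fork protection pair, were lower at 18 h by -0.52 and -0.82 and at 24 h by -1.10 and -1.27. Clspn, the mediator of the replication checkpoint, was higher at 6 h by 0.59 (adjusted p 0.00911) and lower at 24 h by -0.53 (adjusted p 0.0102). Its 24 h call was lost without batch 1 or batch 3 (adjusted p 0.111 and 0.073).

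Origin recognition and the firing kinase mark and start the replication origins, and all 4 genes were lower at 24 h (median -0.88). Orc1 (chromosome 4, 108579423 to 108614833, forward strand), the large subunit of the origin recognition complex, read 12.35, 12.30 and 12.58 in control and 11.61, 11.16 and 11.38 in Ikaros libraries. The groups were apart, with a difference of -1.03 (limma, SE 0.14, adjusted p 4.44e-07). Its difference had widened before then, with called values of -0.49, -0.70, -0.92 and -0.99 at 2, 6, 12 and 18 h. At 0 h its libraries already stood lower in Ikaros cells, at 12.02, 11.82 and 12.15 against 12.16, 12.27 and 12.50 in control. That difference was not called, and neither was its change from 0 to 2 h. The 2 h call was lost without batch 1, without batch 3 and in a fit restricted to the 2 h groups. Orc6 was lower at 18 and 24 h (-0.63 and -0.99), and the kinase Cdc7 and its activating partner Dbf4 at 24 h alone (-0.77 and -0.56, the latter with an adjusted p of 0.0708 without batch 3).

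Chromatin assembly factors deposit histones on the new DNA, and 3 of the 4 genes were lower at 24 h. Chaf1a (chromosome 17, 56040439 to 56072289, forward strand), the large subunit of the assembly factor CAF-1, stood at 14.16, 14.08 and 14.19 in control and at 13.26, 13.23 and 13.18 in Ikaros libraries. These were tightly grouped and apart, with a difference of -0.92 (limma, SE 0.07, adjusted p 2.16e-11). The second CAF-1 subunit Chaf1b (-0.65 and -0.82) and the histone chaperone Nasp (-0.71 and -0.60) were lower at 18 and 24 h. For Nasp the control means at 0, 18 and 24 h were 13.53, 14.06 and 13.96, and the Ikaros means 13.49, 13.35 and 13.36. Asf1b, the chaperone that hands histones to CAF-1, read 14.78, 14.68 and 14.70 in control and 14.64, 14.77 and 14.48 in Ikaros libraries at 24 h, which overlap (difference -0.09, adjusted p 0.54). At 6 and 18 h Asf1b was higher in Ikaros cells, by 0.48 each time (adjusted p 0.00338 and 0.00185), and without batch 3 neither call held.

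The onset of the lower level, taken as the first time from which a gene was called lower at every later time, was spread over the course. It was 0 h for Dscc1 and 2 h for Dna2 and Orc1. Pold2, Pole2 and Wdhd1 followed at 6 h, and Rpa2, Gins2, Gins3, Fen1 and Tipin at 12 h. The onset was 18 h for 12 genes and 24 h for 13 genes. Onsets were not counted over all genes. The share of all genes called lower also rose along the course, from 3.72% at 0 h to 31.9% at 24 h. In 7 of the 9 roles an onset of 24 h stood beside an earlier one, whereas polymerases delta and epsilon had onsets of 6 and 18 h and chromatin assembly of 18 h alone. The calls of Dna2 at 2 h and of Wdhd1 at 6 h held without each culture in turn, whereas the onset calls of Orc1, Pold2, Pole2 and the 5 genes at 12 h were each lost without at least 1 culture. Of the 18 h onset calls, those of Prim1, Pold3, Pole and Rfc3 were also lost without at least 1 culture. At 24 h the same held for Rfc2, Rpa1, Gins4, Clspn and Dbf4. A time of onset follows the test, so a gene with a small early difference could pass later for want of precision.

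The next question was whether the Ikaros-control difference itself changed after induction, since the lines differed at 0 h. Between 0 and 24 h the difference became lower in 31 of the 40 genes and higher in 0, against 24.2% of all genes in each direction. Called changes from 0 to 2, 6, 12 and 18 h numbered 1, 4, 8 and 18, where 3.10%, 15.9%, 29.7% and 43.0% of all genes were called in either direction. Measured from 2 h, which leaves the separately collected 0 h cultures out, 33 genes became lower by 24 h (24.0% of all genes became lower). A moderated F test over the 5 changes called 37 of the 40 genes and 59.8% of all genes, and the genes not called were Rfc1, Rpa3 and Rnaseh2a. Without batch 1 the change from 0 to 24 h was called in 20 genes, and the F test in 23. Without the second culture of every group the F test called 22.

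Of the 6 genes higher at 6 h (18.1% of all genes were), 5 were lower at 24 h, namely Rfc2, Rfc5, Rpa1, Lig1 and Clspn, and the other was Asf1b. The 6 h call of Rpa1 held without each culture in turn, and those of the other 5 genes did not. As 36 of the 40 genes were lower at 24 h, that count alone would give an overlap of this kind. The share of all genes with both calls was not counted. From 6 to 24 h the difference became lower in 34 of the 40 genes and higher in 1, Prim2 (0.35), against 20.7% and 19.7% of all genes. The change was -1.02 for Rpa1 (limma, SE 0.14, adjusted p 2.62e-06), -1.13 for Clspn (SE 0.25, adjusted p 0.000651) and -1.16 for Rfc5 (SE 0.15, adjusted p 4.89e-07). It was -0.89 for Lig1 and -0.42 for Rfc2. The call of Prim2 was lost without any single culture of each group and when only the compared groups were fitted, and that of Rfc2 without batch 1 or batch 3. The count of 35 changed genes was 22 without batch 1 and 23 without batch 3. The contrasts from 6 and from 18 h were added after the other results had been seen.

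Within each line, levels were compared with the 0 h level of that line. In control cells 0 of the 40 genes were called at 2, 12 and 24 h (limma, with 4, 2 and 3 genes passing 0.05 before adjustment), 2 at 6 h and 1 at 18 h, where 0.0470%, 0.0549%, 0.470%, 5.10% and 0.478% of all genes were called at the same times. The 3 calls were rises, of Rfc3 (0.50) and Rnaseh2a (0.70) at 6 h and of Nasp (0.53) at 18 h, and none of them held without any single culture of each group. With the culture batch as a block 4 genes were called in control cells at 6 h and 2 at 18 h.

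In Ikaros cells the counts of genes above and below their 0 h level were 4 and 3 at 2 h, 9 and 3 at 6 h and 12 and 9 at 12 h. Of all genes, 9.54% and 9.61%, 17.1% and 15.6%, and 24.0% and 22.2% were called in these directions. At 18 h 2 genes were above and 15 below (28.1% and 26.5% of all genes), and at 24 h 1 was above and 32 were below (31.0% and 29.6%). With the culture batch as a block, 7 genes were above and 4 below at 2 h. Rises at 12 h included Pcna (0.79), Cdc45 (0.61) and Rfc4 (0.50), and by 24 h these genes stood at -0.49 (not called), -0.55 and -0.69 relative to 0 h. In control cells Rfc4 also stood above its 0 h level, by 0.46, 0.61 and 0.36 at 2, 6 and 12 h, none of them called. The 12 h calls of Rfc4 and Pcna in Ikaros cells were lost without the second culture of every group, and that of Rfc4 also without batch 1. The counts to 12 h were the least stable, with 1, 3 and 11 genes without batch 1 and 2, 1 and 4 without the second culture of every group. Without batch 4 they were 3, 11 and 18.

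Successive times of the Ikaros line showed where in the course the levels moved. From 2 to 6 h 3 genes rose, Pcna, Rpa1 (0.42) and Asf1b (0.50), and 0 fell (5.58% and 5.59% of all genes). From 6 to 12 h 1 gene rose, Prim2 (0.34), and 8 fell (10.9% and 9.87%), and from 12 to 18 h 1 rose, Rfc1 (0.28), and 11 fell (12.0% and 13.5%). These calls were not stable when a culture was left out. The 3 steps gave 0, 8 and 4 calls without batch 1, 0, 0 and 4 without batch 3, and 2, 1 and 10 without batch 4. With all libraries the last step, from 18 to 24 h, had the most calls, with 27 genes lower and 0 higher, in a step in which 4.13% of all genes were lower and 1.65% higher. The median change of the 40 genes in that step was -0.58, to 67.0% of the 18 h level, against 0.01 for all genes. Dna2 fell by 0.92, Clspn by 0.85, Pole by 0.78 and Cdc45 by 0.74 in these 6 h, whereas Orc1 (-0.05) and Nasp (0.02) gave no call. The count of 27 was 14 when only the 18 and 24 h Ikaros groups were fitted, 10 without batch 1 and 4 without batch 3, with 0 genes higher in each case, so that without batch 3 it equalled the count from 12 to 18 h.

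**Figure D4:**
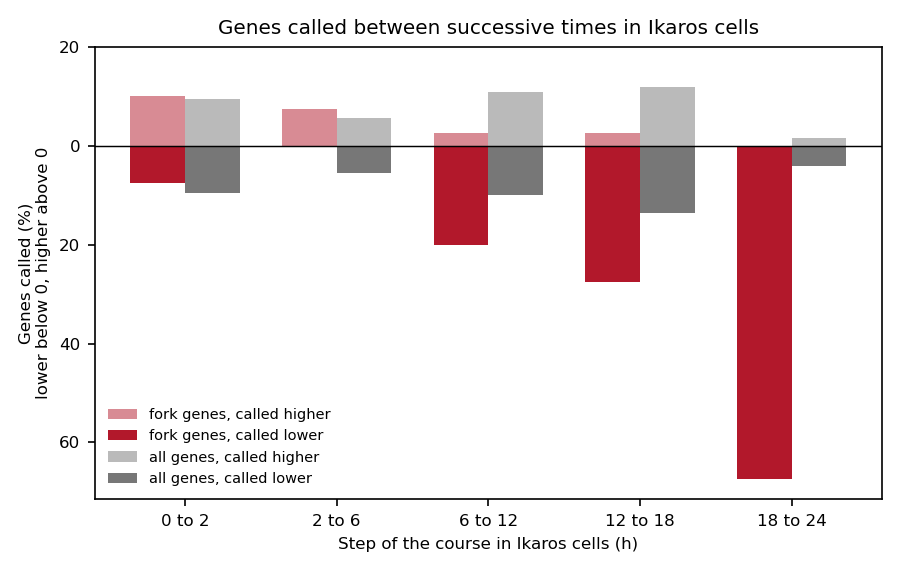
Share of genes called between successive times in Ikaros cells (%), with shares called higher drawn above 0 and shares called lower drawn below 0, for the 40 genes (red) and for all 12762 genes (grey). In the step from 18 to 24 h 67.5% of the 40 genes and 4.13% of all genes were lower.

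The same late step was examined as a change of the Ikaros-control difference. From 18 to 24 h it became lower in 14 of the 40 genes and higher in 0, against 1.92% and 0.713% of all genes. Pcna had the largest such change, -1.35 (limma, SE 0.37, adjusted p 0.0447, not called after quantile normalization), followed by Cdc45 with -0.98 (SE 0.16, adjusted p 0.00229) and Pole with -0.85. These 14 calls rested on the whole data set, since limma called 0 genes without batch 1, without batch 3 or when only the 18 and 24 h groups were fitted (20, 16 and 26 genes passing 0.05 before adjustment), and 5 without batch 4. The median change of -0.46 was below that of all genes, -0.01, and 38 of the 40 estimates were below 0.

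Partners that act in one complex or pathway were set side by side in 4 pairs, chosen after their levels had been seen. The log2 level of Prim1 relative to Prim2 was -1.57 ± 0.07 (SD, n = 3) in control and -2.33 ± 0.11 in Ikaros cells at 24 h, with the libraries of the lines apart. For Rfc4 relative to Rfc1 it was -1.22 ± 0.23 and -2.36 ± 0.16, for Rpa2 relative to Rpa3 -0.55 ± 0.32 and -1.42 ± 0.36, and for Chaf1a relative to Asf1b -0.58 ± 0.06 and -1.41 ± 0.13. At 2 h the control and Ikaros values overlapped in all 4 pairs. They were -1.53 ± 0.19 and -1.54 ± 0.13 for Prim1 relative to Prim2 and -1.02 ± 0.46 and -0.97 ± 0.39 for Rfc4 relative to Rfc1. For Rpa2 relative to Rpa3 (-0.62 ± 0.22 and -0.33 ± 0.25) and Chaf1a relative to Asf1b (-0.62 ± 0.37 and -0.26 ± 0.09) the Ikaros mean was the higher one at 2 h and the lower one at 24 h. These are differences on the log2 scale within a library and do not give a ratio of molecules.

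Other genes of DNA replication were taken from lists written by role, likewise with earlier results known. At 24 h 31.9% of all genes were called lower and 31.0% higher. Of 32 other replication fork genes, 24 were lower at 24 h and 2 higher, with a median difference of -0.74, and the largest was that of Hells, a chromatin remodeller (-2.23). Of 9 genes of the MCM helicase and its licensing factors, 7 were lower and 0 higher (median -0.58), led by the helicase loader Cdc6 (-1.66). Of 10 genes of deoxynucleotide synthesis, 9 were lower and 0 higher (median -1.38), led by the thymidylate synthase Tyms (-2.97). All 3 medians were below the -0.01 of all genes.

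Genes of mitosis and G2/M gave another picture. Of 30 such genes, 14 were higher and 1 lower at 6 h (18.1% and 19.2% of all genes), with a median of 0.33, when the median of the 40 fork and chromatin assembly genes was 0.04. At 24 h 2 were higher and 14 lower (31.0% and 31.9% of all genes), with a median of -0.08, and the largest difference was that of the cyclin Ccnb1 (-1.25). In the step from 18 to 24 h within the Ikaros line 16 of the 30 fell and 0 rose (4.13% and 1.65% of all genes), with a median of -0.44. Of the 9 MCM and licensing genes, 3 were higher and 0 lower at 6 h (median 0.26), where 18.1% and 19.2% of all genes were. The difference between these lists was not tested.

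**Figure D5:**
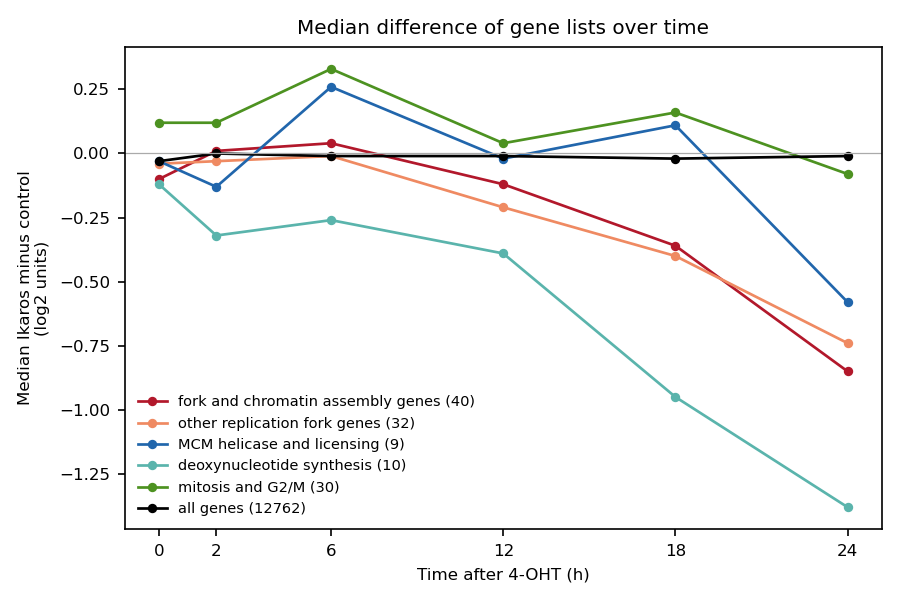
Median Ikaros minus control difference (log2 units) of 6 sets of genes against time after 4-OHT (h), with n = 3 libraries per group behind each difference. The 40 fork and chromatin assembly genes (red) go from 0.04 at 6 h to -0.85 at 24 h, deoxynucleotide synthesis reaches -1.38, mitosis and G2/M peaks at 0.33 at 6 h, and all genes (black) stay near 0.

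Promoters were examined for short sequences because most of the genes moved together late in the course. RefSeq promoters (GRCm38.p6), 250 bases before to 50 after a start site, were at hand for 32 of the 40 genes and for 8586 genes of the table, and those of Prim2, Pole, Rfc2, Dscc1, Gins1, Gins2, Gins4 and Tipin were not examined. The letters TTTCCCGC, TTTCGCGC, TTTGCCGC and TTTGGCGC, forms of the E2F element of S phase genes, were searched on both strands, and like the other letters they were chosen with the results known. They occurred in 9 of the 32 promoters (28.1%) and in 419 of the 8586 (4.88%). The 9 genes were Pola1, Pold1, Pold3, Pole2, Rfc3, Gins3, Lig1, Clspn and Orc1, all lower at 24 h, as were 29 of the 32 genes with a promoter. Matches lay before the RefSeq start site in 4 genes. Their positions were -27 to -20 in Orc1, -41 to -34 in Gins3, -10 to -3 in Rfc3 and -138 to -131 in Pola1. By the gene positions of GENCODE, a second annotation, the matches of Orc1, Gins3 and Rfc3 lay inside the gene. That of Pola1 lay before the gene in both. The 30 bases around each of these 4 matches are given in the direction of transcription, with the match in capitals. These stretches were chosen because their matches lay before the RefSeq start site. They lie at chr4:108579416-108579445 (Orc1, forward strand), chr8:95633507-95633536 (Gins3, forward), chr5:151651200-151651229 (Rfc3, reverse) and chrX:93632275-93632304 (Pola1, reverse).
Orc1: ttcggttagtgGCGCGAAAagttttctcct
Gins3: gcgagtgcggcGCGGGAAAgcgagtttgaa
Rfc3: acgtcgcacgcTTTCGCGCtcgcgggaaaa
Pola1: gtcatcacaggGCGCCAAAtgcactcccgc

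Rfc3 carried a further match at positions 1 to 8, and the matches of the other 5 genes lay after the RefSeq start site. The genes that hold the letters differed in onset, from 2 h for Orc1 and 6 h for Pole2 to 24 h for Pola1, Lig1 and Clspn. CCAAT, the NF-Y box, was found in 18 of the 32 promoters (56.2%, against 43.6% of all), TTTGAA, the core of the cell cycle homology region, in 8 (25% against 14.2%), and GGGCGG, the GC box, in 23 (71.9% against 68.6%). TGGGAA, the core recognized by Ikaros, was in 12 (37.5% against 26.0%), Pold2, Pole2, Prim1 and Chaf1a among them. A match describes letters and not binding, and matches of different motifs may overlap.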

How the data were processed

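Messenger RNA of 36 B3 cultures was sequenced. The authors aligned the reads to mm10 with TopHat2, counted them with HTSeq, corrected the counts for GC content and length with cqn, and removed library preparation effects with ComBat. Deposited values are log2 expression, the scale cqn returns, with a lowest value of 1. The table does not state the base, the libraries were strand-specific but the strand setting of the counting is not given in the sources used here, and no counts were used, so the depth reached is unknown and precision is set by n = 3. The methods of the study report high read duplication in most samples, which they attribute to sequencing depth, and GC over-representation in some samples. Batch adjustment before deposition may make standard errors too small.

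The group of each library came from its label. One model with 12 group means was fitted to all 12762 genes with limma 3.58.1 in R 4.3.3 (two-sided, Benjamini-Hochberg over all genes, threshold 0.05), and the code was tested on simulated data. The methods of the study name no differential test for this table. The 40 genes, the lists and the motifs were chosen with earlier results of these data known, so lists are described by counts and medians. One gene of the pre-B marker list is not reported here. Values in every library are given for the gene with the largest 24 h difference in each role, for the genes not called at 24 h, and for those called in the opposite direction at 0 or 2 h.

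The labels give one batch number to both lines, so these numbers pair the libraries. Deviations of paired libraries from their group means correlated across genes between -0.0620 and 0.507 over 18 pairs (median 0.127, 12 above 0.1). The alternatives were the batch as a block, a filter at the 25th percentile of mean level, quantile normalization, trend and robust options of eBayes, fits restricted to the groups compared, and fits that left out each replicate. Gene positions are those of GENCODE on GRCm38, and copies were sought among annotated transcripts at 95% identity over at least 200 bases.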

Additional observations from a re-analysis of the deposited data

Results flagged for a closer look

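The Ikaros-control difference changed between times by a test of the change itself. Called changes from 0 h to 2, 6, 12, 18 and 24 h numbered 1, 4, 8, 18 and 31 of the 40 genes. Over all genes 3.10%, 15.9%, 29.7% and 43.0% were called at 2 to 18 h, so those counts lay near or below the background, and at 24 h 24.2% became lower and 24.2% higher. From 2 to 24 h there were 33 (24.0% of all genes became lower), from 6 to 24 h 35 (20.7% lower and 19.7% higher) and from 18 to 24 h 14 (1.92% and 0.713%), and the F test over the 5 changes called 37 (59.8% of all genes). These counts share control libraries and are not independent of each other.

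Single genes changed sides, being called in opposite directions at 2 times with a called change between them. The share of all genes that did so was not counted. Pola1 changed by -1.39 and Rfc5 by -1.10 from 0 to 24 h. From 6 to 24 h the changes were -0.42 for Rfc2, -1.16 for Rfc5, -1.02 for Rpa1, -0.89 for Lig1 and -1.13 for Clspn (limma, log2 units). The direction at 24 h of Rfc2, Rpa1 and Clspn rested on calls that did not hold without batch 1 or batch 3. The higher level at 0 h was not called for Pola1 without batch 2, nor for Rfc5 without any single culture of each group. At 6 h that of Rfc2, Rfc5, Lig1 and Clspn was not called without batch 1 or batch 3, and neither was the change of Rfc2 from 6 to 24 h.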

How the results depend on the processing

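The 24 h comparison was the most stable, with 36 genes called under the batch block and 34 when only the compared groups were fitted, all lower. The filter on low values, quantile normalization and the trend and robust settings moved no count by over 1.5 times, and the block did so only for Ikaros cells at 2 h against 0 h (11 against 7) and control cells at 6 h (4 against 2) and 18 h (2 against 1) against 0 h. Fits of only the compared groups have fewer libraries behind the estimate of spread. They called 3, 1, 6 and 4 genes for Ikaros against control at 0, 2, 6 and 12 h, 0 for the change from 18 to 24 h, 1, 5 and 8 for Ikaros cells at 2, 6 and 12 h against 0 h, 0 for control cells at 6 and 18 h, and 0, 0, 5 and 14 for the Ikaros steps from 2 to 6, 6 to 12, 12 to 18 and 18 to 24 h.

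Leaving out 1 replicate of every group left 2 libraries per group. Calls for Ikaros against control then ranged, in time order, from 0 to 5, 1 to 6, 6 to 16, 6 to 10, 18 to 26 and 31 to 35. Changes of the difference from 0 h ranged from 0 to 2, 0 to 4, 1 to 10, 8 to 15 and 20 to 30 in the same order, from 23 to 32 for 2 to 24 h, 22 to 32 for 6 to 24 h and 0 to 5 for 18 to 24 h, and the F test from 22 to 36. Ikaros cells against 0 h gave 1 to 3, 1 to 11, 4 to 18, 11 to 16 and 29 to 33 calls, and control cells 0 at 6 and 18 h. The Ikaros steps gave 0 to 2, 0 to 8, 4 to 10 and 4 to 23. The 24 h difference of Rpa3 was -0.01 with all libraries, 0.05 without replicate 1, -0.23 without replicate 2 and 0.15 without replicate 3. The cause of these shifts was not tested.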
